A study of Mus musculus with 12 samples.

Results

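The 10 genes described here mark the endothelial cells that line the sinusoids of the liver: Stab1, Stab2, Lyve1, Clec4g, Fcgr2b, Oit3, Kdr, Gpr182, Dnase1l3 and Ehd3. They were taken by symbol from a list of genes known for this cell type, and all 10 were found among the 16821 genes of the expression files. No measured value entered the rule, but earlier results of these data were known when the genes were chosen. Whole liver RNA was sequenced from 12 adult male C57BL/6J mice, with a library for each mouse. Treadmill running of moderate intensity was carried out by the 6 Exe mice over 6 weeks, and the 6 Con mice, housed with the runners in 1 room, were sedentary. No mouse carried a transgene or received a drug, and all livers were perfused with saline before they were frozen. Single mice are given by group and number, such as Con 1 or Exe 6.

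Sinusoidal endothelial cells form a thin, fenestrated wall without a continuous basement membrane, so that plasma reaches the hepatocytes directly. They are known as the main scavenger endothelium of the body, which takes up hyaluronan, modified proteins, immune complexes and other waste from the blood by receptor-mediated endocytosis. Stab1 and Stab2 encode the scavenger receptors stabilin-1 and stabilin-2, and Lyve1 encodes a hyaluronan receptor that lymphatic endothelium also carries. Clec4g encodes the C-type lectin LSECtin, and Fcgr2b encodes the inhibitory Fc receptor that binds immune complexes and is also found on macrophages and B cells. Kdr encodes VEGF receptor 2, the main signalling receptor for VEGF-A, and Gpr182 encodes an atypical chemokine receptor. Dnase1l3 encodes a secreted DNase that degrades extracellular chromatin, Ehd3 an ATPase of endosomal recycling, and Oit3 a protein with a zona pellucida domain.

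Expression is given as FPKM, the fragments counted per kilobase of a transcript and scaled to the size of its library, so levels can be compared between genes and are given per length. Summed over all genes, a mouse had between 735200 and 820107 FPKM. The files hold no read counts. Genes with very few reads were kept if each FPKM above 0 lay within 8% of a whole multiple of a common step. This left 19 genes, whose steps put the depth of the mice, relative to each other, between 0.984 and 1.03 (largest standard error 0.0085). As genes with larger deviations were dropped, the estimate could not show depths that differed by much more than 8%. Errors are the spread between mice within a group. In a whole liver, fewer endothelial cells and less RNA per cell cannot be told apart.

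All 10 genes were detected in all 12 mice, and all 10 passed the filter for testing, which asked for 1 FPKM or more in 6 or more mice. Clec4g was the most abundant at 32.5 ± 5.49 FPKM (mean ± SD, n = 12), above 81.5% of the genes tested. Fcgr2b followed at 21.3 ± 3.52 FPKM, and Ehd3 and Dnase1l3 at 14.6 ± 2.67 and 13.0 ± 2.39 FPKM. Gpr182 and Stab2 lay at 9.47 ± 2.02 and 9.05 ± 1.14 FPKM, close to the middle of the genes tested. Oit3 was at 6.91 ± 1.30 FPKM, Kdr at 5.92 ± 1.20 FPKM and Stab1 at 5.44 ± 0.62 FPKM. Lyve1 was the lowest at 1.36 ± 0.45 FPKM, above only 5.22% of the genes tested, and it reached 1 FPKM in 10 of 12 mice. This order of levels held within mice for most neighbours: Clec4g exceeded Fcgr2b, Fcgr2b exceeded Ehd3, Dnase1l3 exceeded Gpr182, Stab2 exceeded Oit3 and Stab1 exceeded Lyve1 in 12 of 12 mice. Gpr182 and Stab2 did not differ beyond their spread, with Gpr182 above Stab2 in 7 of 12 mice. Kdr exceeded Stab1 in 9 mice, Ehd3 exceeded Dnase1l3 in 10 mice and Oit3 exceeded Kdr in 11 mice. Over mice the ranges of neighbouring genes overlapped everywhere except between Stab1 and Lyve1.

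The spread between mice differed among the genes. The coefficient of variation over the 12 mice was 18.3% at the median of the 10 genes, against 11.7% at the median of all 10241 genes tested. It was smallest for Stab1 (11.4%) and Stab2 (12.5%) and largest for Lyve1 (33.3%), the gene with the fewest reads per length.

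Promoter sequences were matched for 6 of the 10 genes (RefSeq, GRCm38.p6), each covering 250 bases before and 50 bases after the start of transcription. The 4 printed here belong to Fcgr2b and Kdr, whose levels varied together most closely over the mice, to Clec4g, the most abundant gene, and to Stab2, a defining receptor of the cell type. They are printed 5′ to 3′ on the strand of the gene. Capitals mark matches, on either strand, to GATA letters (AGATAA, or the letters AGATAG, or the letters TGATAA, or the letters TGATAG), after the factor family of Gata4, which directs sinusoidal endothelial identity, or to ETS letters (AGGAAG, or the letters CGGAAG), after the family of the endothelial factor Erg.
Fcgr2b, chr1:170976022-170976321, minus strand: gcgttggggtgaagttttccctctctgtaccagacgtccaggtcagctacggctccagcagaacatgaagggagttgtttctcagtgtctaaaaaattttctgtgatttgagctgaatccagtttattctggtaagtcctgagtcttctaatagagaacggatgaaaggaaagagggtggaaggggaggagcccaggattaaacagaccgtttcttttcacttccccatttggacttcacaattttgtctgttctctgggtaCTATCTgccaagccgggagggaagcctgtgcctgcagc
Kdr, chr5:75978406-75978705, minus strand: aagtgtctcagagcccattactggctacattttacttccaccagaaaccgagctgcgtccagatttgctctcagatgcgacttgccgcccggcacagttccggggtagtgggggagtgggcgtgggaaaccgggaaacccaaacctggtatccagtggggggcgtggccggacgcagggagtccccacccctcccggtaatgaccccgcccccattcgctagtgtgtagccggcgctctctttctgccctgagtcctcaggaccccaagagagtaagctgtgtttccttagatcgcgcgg
Clec4g, chr8:3720602-3720901, minus strand: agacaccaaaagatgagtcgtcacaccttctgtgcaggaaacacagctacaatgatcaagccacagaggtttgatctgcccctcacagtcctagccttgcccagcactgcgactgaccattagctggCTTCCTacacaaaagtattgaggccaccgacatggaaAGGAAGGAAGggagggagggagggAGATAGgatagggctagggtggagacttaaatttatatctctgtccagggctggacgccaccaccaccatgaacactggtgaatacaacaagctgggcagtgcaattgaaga
Stab2, chr10:87007893-87008192, minus strand: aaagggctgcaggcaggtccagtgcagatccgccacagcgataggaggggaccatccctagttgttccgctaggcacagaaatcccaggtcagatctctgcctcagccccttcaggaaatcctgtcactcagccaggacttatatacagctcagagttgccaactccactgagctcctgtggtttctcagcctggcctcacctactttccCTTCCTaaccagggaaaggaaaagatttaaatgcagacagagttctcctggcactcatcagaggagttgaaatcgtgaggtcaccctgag
The Kdr promoter was rich in G and C (60.7%), held 19 CpG and none of these letters. The Fcgr2b promoter had 48.0% G and C with 6 CpG, and its 1 GATA match began at position 13 after the start. Clec4g had 1 GATA match and 3 ETS matches, of which 2 overlapped, and Stab2 had 1 ETS match. Of the 6 promoters, which also include those of Stab1 and Ehd3, 3 held GATA letters and 4 held ETS letters. Among all 32851 promoters of this length in the table, 29.8% held the GATA and 46.5% the ETS letters. These matches are a description of the letters in this window.

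To ask whether chronic exercise changed the expression of these genes, log2(FPKM + 1) was compared between Exe and Con mice with limma (group as the only term, Benjamini-Hochberg adjustment over all genes tested). No difference passed the test. Of the 10, 0 passed an adjusted p of 0.05 with an absolute log2 fold change over 1, and 0 reached an unadjusted p of 0.05, where the whole table gave 0% and 6.21% (636 of 10241 genes, with 4.27% higher and 1.94% lower in Exe mice). With each of 12 mice left out in turn, the number at an unadjusted p of 0.05 was 0 except without Con 5 (3 genes, with 5.86% of all genes past it in that fit) and without Exe 5 (1 gene, with 8.89% of all genes past it). The adjusted p of the 10 genes lay between 0.876 and 0.995. On this scale the log2 fold change was above 0 in 7 of the 10 genes and below 0 in Stab1, Stab2 and Lyve1, and when the FPKM of each mouse were rescaled to the same sum, Stab1 and Stab2 turned to the other side of 0. The median log2 fold change was 0.09 over the 10 genes and 0.02 over all genes tested, of which 57.5% were above 0. The median of the 10 was 0.02 without Con 1, 0.05 without Exe 2, 0.06 without Con 3, 0.18 without Con 5 and 0.14 without Exe 6. The values of Con and Exe mice overlapped in all 10 genes. Overlap of the groups was not counted over all genes tested.

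**Figure D1:**
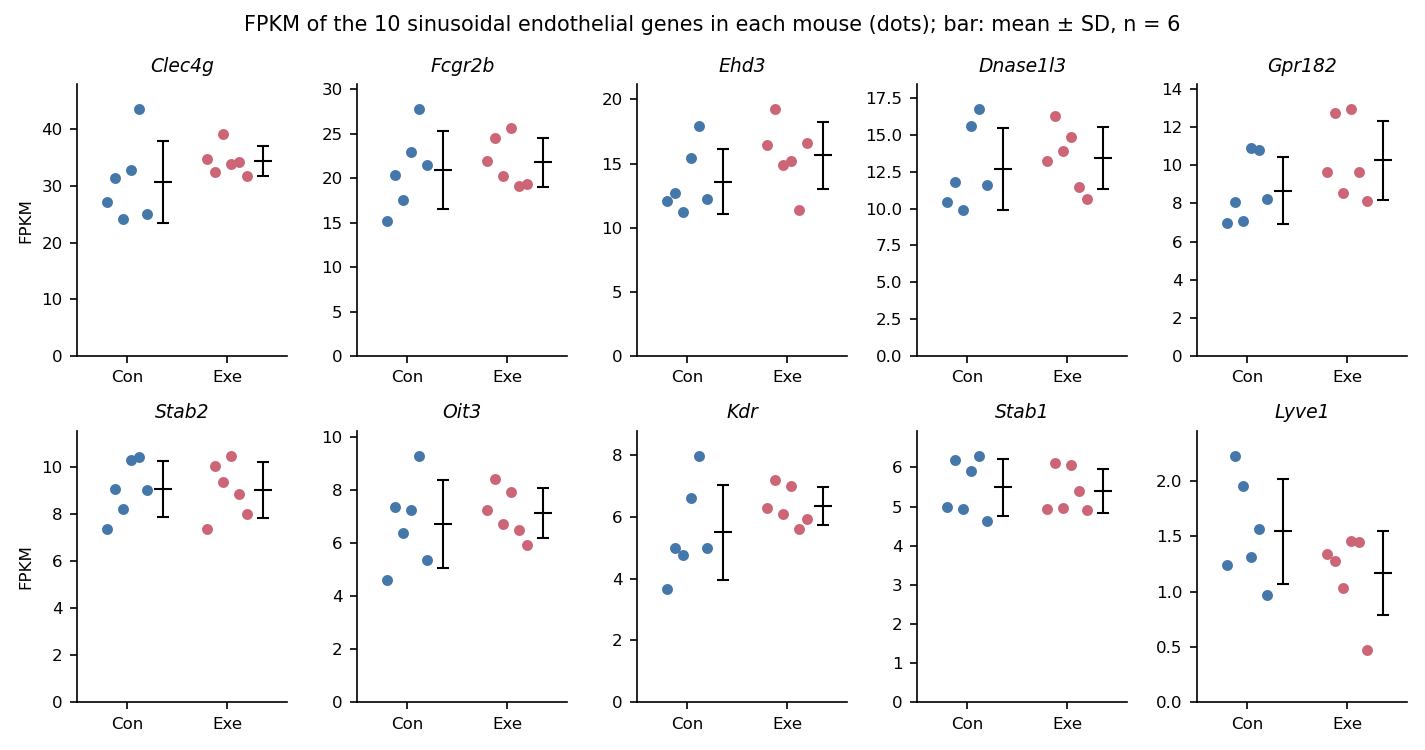
FPKM (vertical axis of each panel, from 0) of the 10 genes in the 6 Con and 6 Exe mice, with dots for single mice and bars for the group mean ± SD. In every panel the Con and Exe dots overlap, and for Clec4g and Kdr the Con mice, with Con 5 highest, are spread more widely than the Exe mice.

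Of the scavenger receptors, Stab2 ran from 7.36 FPKM in the lowest Con mouse through a median of 9.07 FPKM to 10.4 FPKM, and from 7.39 FPKM in the lowest Exe mouse through 9.10 FPKM to 10.5 FPKM. The groups had nearly the same range, and the log2 fold change was -0.01 (95% interval -0.21 to 0.20, from limma). An increase or decrease of Stab2 beyond 1.14-fold or 0.864-fold on the FPKM + 1 scale lies outside that interval. Stab1 was at 4.62, 5.45 and 6.30 FPKM (lowest, median and highest) in Con mice and at 4.92, 5.19 and 6.11 FPKM in Exe mice. Its Exe values all lay within the Con range, and limma gave a log2 fold change of -0.02 with a standard error of 0.08 (adjusted p = 0.986).

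Lyve1 had the most negative log2 fold change of the 10 genes. Its lowest, median and highest values were 0.97, 1.44 and 2.23 FPKM in Con mice and 0.47, 1.31 and 1.46 FPKM in Exe mice. The 2 highest values were those of Con 2 and Con 3, and the lowest was that of Exe 6. The means were 1.55 ± 0.47 and 1.17 ± 0.38 FPKM (SD, n = 6), with a log2 fold change of -0.23 (95% interval -0.54 to 0.08 from limma) and an exact two-sided permutation p of 0.184. At this level the added 1 FPKM shrinks the fold change, and with 0.1 added in its place the log2 fold change was -0.40 (adjusted p = 0.894 from limma). With each mouse left out in turn it stayed between -0.30 and -0.12, weakest without Exe 6.

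Clec4g was at 24.1, 29.3 and 43.5 FPKM (lowest, median and highest) in Con mice and at 31.7, 34.1 and 39.2 FPKM in Exe mice. The Exe mice lay above 4 of the 6 Con mice, but Con 5 held the highest value of all. The log2 fold change was 0.18 (95% interval -0.07 to 0.44, exact two-sided permutation p = 0.193). Without Con 5 it was 0.29, with an unadjusted p of 0.0058 and an adjusted p of 0.811 from limma, and without Con 3 it was 0.12 (unadjusted p = 0.321 from limma).

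Fcgr2b was at 15.2, 20.9 and 27.8 FPKM in Con mice and at 19.1, 21.1 and 25.7 FPKM in Exe mice, again lowest, median and highest. The medians differed by less than the spread of either group, and limma gave a log2 fold change of 0.07 with a standard error of 0.12 (adjusted p = 0.959). Without Con 1 it was -0.01 and without Con 5 it was 0.16.

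Of the receptors for growth factors and chemokines, Kdr was at 3.65, 4.99 and 7.97 FPKM in Con mice and at 5.61, 6.19 and 7.19 FPKM in Exe mice. All 6 Exe mice lay above the Con median and 4 Con mice lay below every Exe mouse, but Con 5 was higher than all. The log2 fold change of Kdr was 0.21 (95% interval -0.07 to 0.49, exact two-sided permutation p = 0.177). Without Con 5 it was 0.31 (unadjusted p = 0.0134, adjusted p = 0.824 from limma), and without Con 1 it was 0.12 (unadjusted p = 0.323 from limma). Gpr182 was at 6.95, 8.14 and 10.9 FPKM in Con mice and at 8.11, 9.64 and 12.9 FPKM in Exe mice. Exe 2 and Exe 4 lay above every Con mouse, and the log2 fold change of 0.22 was the highest of the 10 genes (95% interval -0.07 to 0.51, exact two-sided permutation p = 0.158).

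Among the remaining genes, the endosomal Ehd3 was at 11.3, 12.5 and 17.9 FPKM in Con mice and at 11.4, 15.8 and 19.2 FPKM in Exe mice. Only Exe 2 lay above every Con mouse, and the log2 fold change was 0.19 (95% interval -0.08 to 0.45, exact two-sided permutation p = 0.186). Ehd3 reached an unadjusted p of 0.0344 without Con 5 and of 0.0286 without Exe 5, with adjusted p of 0.831 and 0.543 from limma. The nuclease gene Dnase1l3 was at 9.91, 11.7 and 16.7 FPKM in Con mice and at 10.6, 13.6 and 16.3 FPKM in Exe mice, all within the Con range, with a log2 fold change of 0.09 (standard error 0.13). Oit3 was at 4.59, 6.80 and 9.28 FPKM in Con mice and at 5.92, 6.98 and 8.42 FPKM in Exe mice, likewise within the Con range, with a log2 fold change of 0.10 (standard error 0.13). For these 2 genes the exact two-sided permutation p was 0.556 and 0.515. With a mouse left out, the log2 fold change of Dnase1l3 lay between 0.03 (without Con 3) and 0.17 (without Con 5), and that of Oit3 between 0.01 (without Con 1) and 0.19 (without Con 5).

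**Figure D2:**
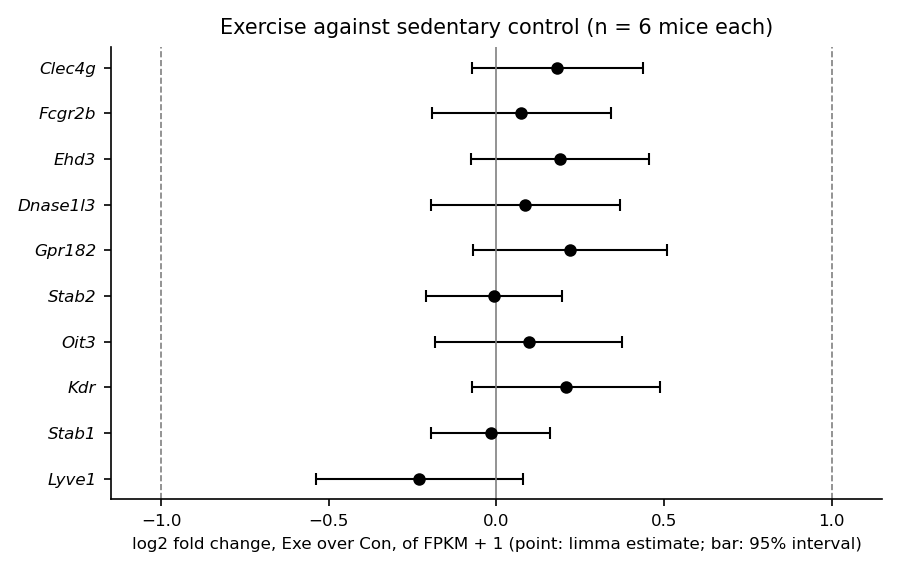
Log2 fold change of FPKM + 1, Exe over Con (horizontal axis), with the 95% interval from limma for the 10 genes and dashed lines at an absolute log2 fold change of 1. All intervals contain 0 and run from -0.54 at the lowest end (Lyve1) to 0.51 at the highest (Gpr182), inside the dashed lines.

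For 7 of the 10 genes the SD was larger in Con than in Exe mice, as it was for 44.6% of all genes tested. The highest of the 12 mice was a Con mouse for 7 genes, and the lowest was a Con mouse for 9. The highest and lowest mice were not counted over all genes tested. The FPKM of the 10 genes together summed to 93.7, 108.9 and 152.3 (lowest, median and highest) in Con mice and to 111.7, 124.1 and 138.2 in Exe mice. The Exe sums all lay within the Con range, and the ratio of the group means was 1.08. Con 5 held the highest value of the 12 mice for 6 of the 10 genes and Con 1 held the lowest for 5. Clec4g made up between 23.4% and 31.4% of the sum in a mouse.

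The values of most of these genes varied together from mouse to mouse. Pearson's r of log2(FPKM + 1) over the 12 mice was above 0 for 42 of the 45 pairs of genes, with a median of 0.69. At an adjusted p of 0.05, 30 pairs passed (permutation test with 100000 resamples, two-sided, Benjamini-Hochberg adjustment over the 45 pairs). By Spearman's rho 22 pairs passed, and with deviations from the group means, permuted within groups, 23 pairs passed. Without Con 1 there were 19 such pairs and without Con 5 there were 16, so the count rests in part on these mice. The genes of a library share its scaling and composition, which was not removed by any of these tests. With quantile normalization between mice, 29 pairs passed. Pairs of other genes were not tested, so how far 30 of 45 exceeds the share among all genes tested is not known. As a description, the median r of a single member with the 10231 other genes tested ran from 0.02 (Clec4g) to 0.18 (Gpr182).

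All 30 pairs were among the 36 that do not involve Lyve1. In those 36 pairs r ran from 0.39 (Stab2 and Ehd3) to 0.91 (Fcgr2b and Kdr), with a median of 0.73. Within the 6 Con mice r was above 0 for all 36 pairs with a median of 0.85, and within the 6 Exe mice it was above 0 for 30 pairs with a median of 0.67. Of the 9 pairs with Lyve1, 0 passed, r ran from -0.33 to 0.50, and the lowest adjusted p was 0.129 (permutation test). The median r of these 9 pairs was 0.0077 within Con mice and 0.50 within Exe mice, where it was 0.67 with Oit3 and 0.66 with Gpr182 (exact permutation p = 0.136 and 0.108). This difference between groups was not tested. The highest of them, with Stab1, passed without Con 3 (r = 0.67, adjusted p = 0.0301, permutation test). Of 144 values for these 9 pairs under the alternatives, this was the 1 that passed.

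The closest pair was the Fc receptor gene Fcgr2b with the VEGF receptor gene Kdr, at r = 0.91 (permutation p = 5e-05, adjusted p = 0.0021) and rho = 0.88 (permutation p = 0.00038, adjusted p = 0.00427). Within Con mice r was 0.95 (exact permutation p = 0.0111) and within Exe mice 0.96 (exact permutation p = 0.00556). Without Con 1 and Con 5, the mice farthest from the median of Fcgr2b, r was 0.78 (permutation p = 0.00771). Fcgr2b and Dnase1l3 followed at r = 0.88 (permutation p = 0.0001, adjusted p = 0.0021) and rho = 0.92 (permutation p = 0.00011, adjusted p = 0.00247). For this pair r was 0.89 within Con mice, 0.86 within Exe mice (exact permutation p = 0.0194 and 0.0403) and 0.87 without Con 1 and Con 5 (permutation p = 0.00104). Oit3 and Kdr stood at r = 0.88 (permutation p = 0.00024, adjusted p = 0.00217) and rho = 0.85 (permutation p = 0.00093, adjusted p = 0.0056). Their r was 0.90 within Con mice and 0.91 within Exe mice (exact permutation p = 0.0181 and 0.0167), and 0.69 without Con 1 and Con 5 (permutation p = 0.0255). The lowest pair was Lyve1 with Ehd3, at r = -0.33 (permutation p = 0.309, adjusted p = 0.356) and rho = -0.20 (permutation p = 0.54, adjusted p = 0.607). It was at r = -0.08 within Con mice and -0.29 within Exe mice (exact permutation p = 0.883 and 0.492), and at -0.11 without Con 2 and Exe 6 (permutation p = 0.761).

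**Figure D3:**
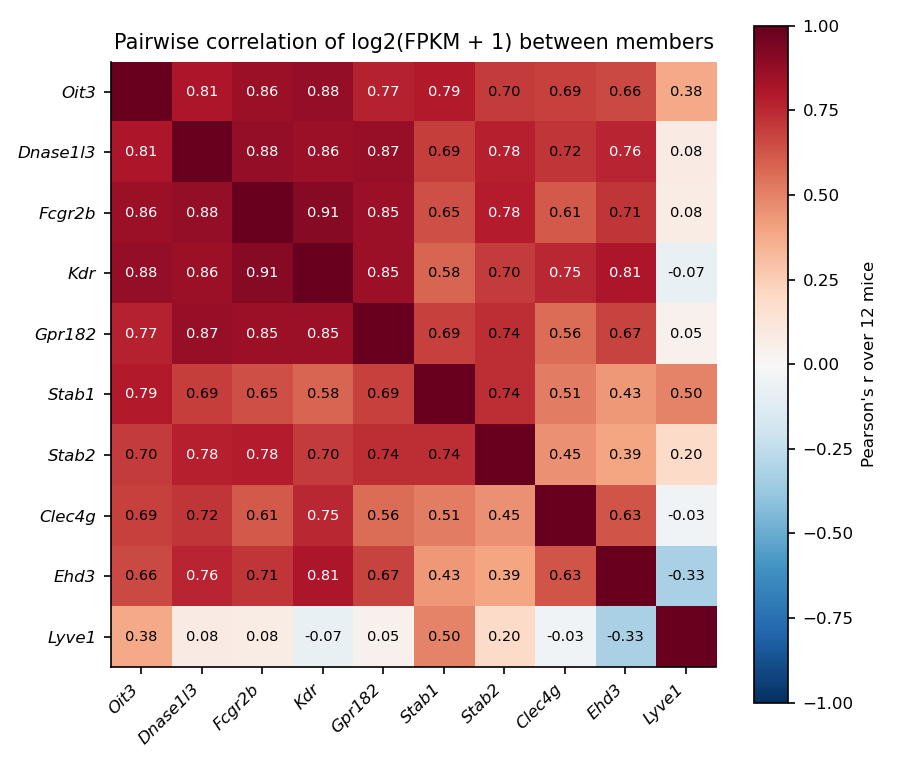
Pearson's r of log2(FPKM + 1) over the 12 mice for each pair of the 10 genes, printed in each cell and coloured from -1 (blue) to 1 (red). A block of genes with Kdr, Fcgr2b, Oit3, Dnase1l3 and Gpr182 stands at 0.77 or higher, and the row of Lyve1 stays at 0.50 or lower.

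The paralogs Stab1 and Stab2 had r = 0.74 (permutation p = 0.00911, adjusted p = 0.0205) and rho = 0.66 (permutation p = 0.0221, adjusted p = 0.0459). Within groups r was 0.68 in Con and 0.83 in Exe mice (exact permutation p = 0.174 and 0.0556), and without Con 2 and Con 5 it was 0.74 (permutation p = 0.0172). For Clec4g the correlations within the groups lay apart. With the 8 other genes apart from Lyve1 its r lay between 0.73 and 0.95 within Con mice and between -0.35 and 0.19 within Exe mice, where 6 of the 8 were below 0. This difference between groups was not tested. Over all 12 mice, 5 of these 8 pairs passed an adjusted p of 0.05 (permutation test).

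**Figure D4:**
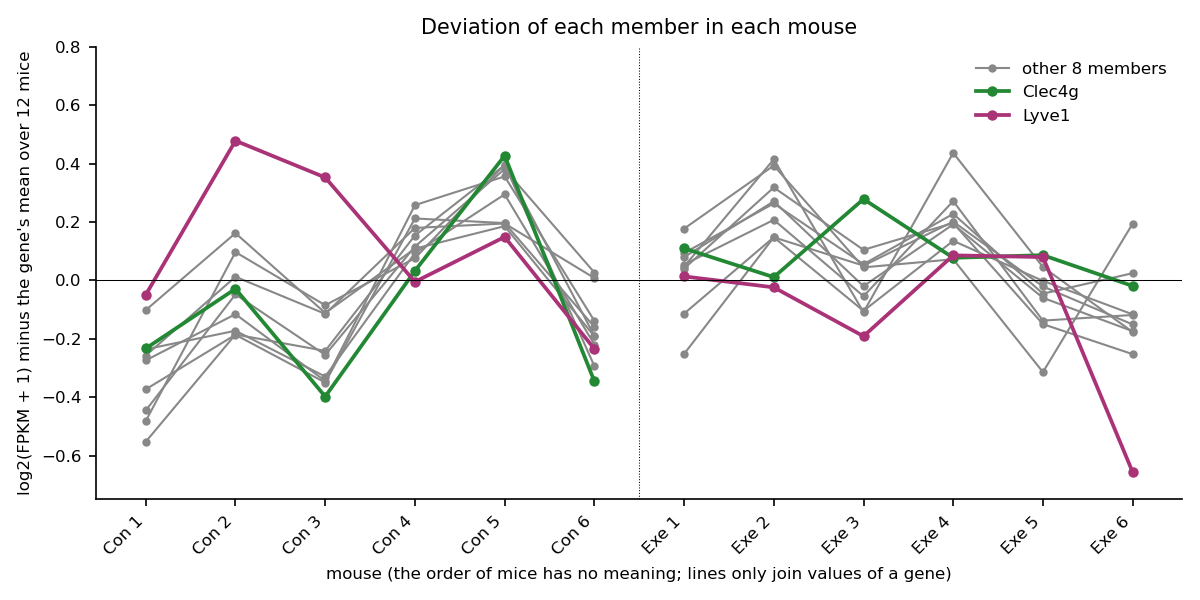
Log2(FPKM + 1) of each gene minus its mean over the 12 mice (vertical axis), by mouse, with Clec4g in green, Lyve1 in magenta and the other 8 genes in grey. Most grey lines are low in Con 1 and Con 3 and high in Con 5 and Exe 2, while Lyve1 is high in Con 2 and Con 3 and lowest in Exe 6.

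Other lists of genes were set beside the 10, for endothelium in general and for the other cells of the liver. Pan-endothelial genes, which mark endothelial cells of all vessels, were all found in the files: of the 25, 21 were tested, 18 had a log2 fold change above 0 and 3 below, and 1 gene, Tek, passed an unadjusted p of 0.05. Tek, the angiopoietin receptor gene, was at 1.66 ± 0.37 FPKM in Con and 2.18 ± 0.49 FPKM in Exe mice (SD, n = 6), which limma put at a log2 fold change of 0.26 (adjusted p = 0.799). The summed level of this list was 83.3 to 124.6 FPKM in Con and 96.4 to 130.3 FPKM in Exe mice, and the sum of the 10 genes divided by it was 1.09 ± 0.11 in Con and 1.13 ± 0.06 in Exe mice. Relative to this list, the 10 genes differed between groups by less than the spread between mice.

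As a description of likeness, the mean of the 10 centred log2 values was set against each other gene over the 12 mice. The median of Pearson's r was 0.76 over the 21 pan-endothelial genes tested, of which 17 were over 0.5, against a median of 0.13 over 10231 genes, of which 1435 were over 0.5. The 5 genes most like it were Erg (0.93), Cd55 (0.93), Aqp1 (0.90), Isg20l2 (0.90) and Zdhhc17 (0.90). Erg encodes an ETS factor of endothelial cells and Aqp1 a water channel of endothelium and bile duct, and Cd55 encodes a membrane inhibitor of complement. The next genes include Gpihbp1, which anchors lipoprotein lipase on capillaries, and Egfl7, which endothelial cells secrete (both 0.90). By member, the median r with the 21 pan-endothelial genes was 0.78 for Dnase1l3, 0.74 for Kdr, 0.73 for Fcgr2b, 0.46 for Clec4g and 0.18 for Lyve1. The points of all these comparisons share the same 12 libraries.

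**Figure D5:**
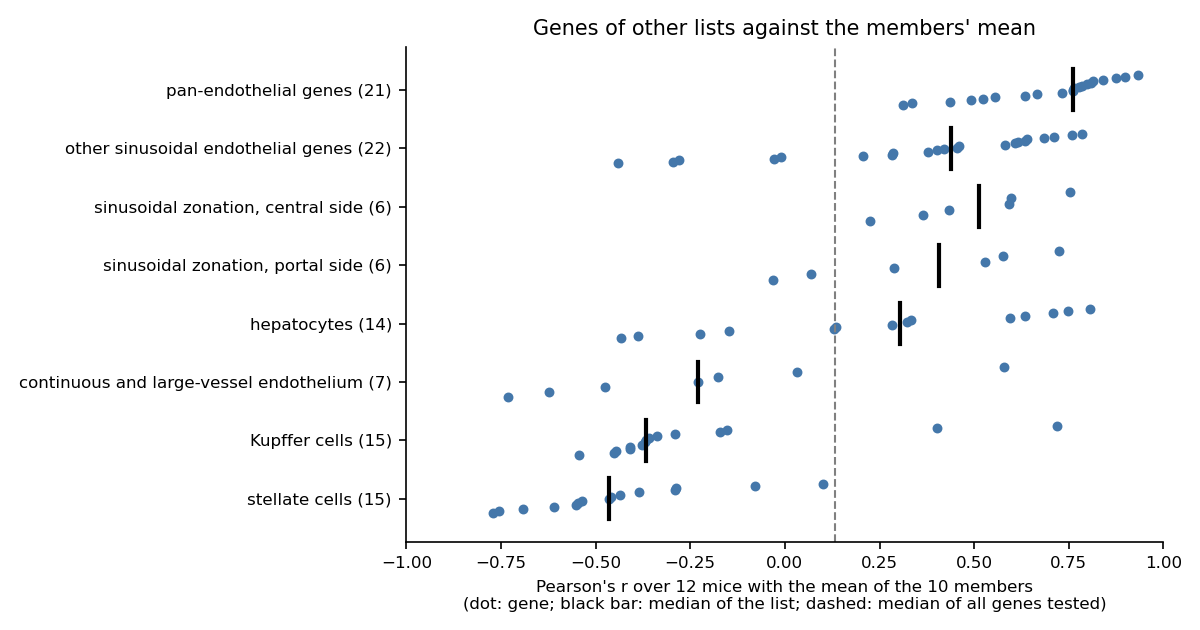
Pearson's r over the 12 mice between each tested gene of 8 lists (dots, number of genes in parentheses) and the mean of the 10 sinusoidal genes (horizontal axis), with list medians as black bars and the median of all genes tested as a dashed line. Pan-endothelial genes sit highest, with a median of 0.76, and Kupffer and stellate cell genes lowest, at -0.37 and -0.46.

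Other genes known from sinusoidal endothelium formed a further list. Of 24 listed, 23 were in the files and 22 were tested, with 8 above and 14 below 0, 0 at an unadjusted p of 0.05 and a median r of 0.44. Ctsl, a lysosomal protease gene that many cells express, made up 58.6% of the sum of this list, so the sum of this list is mostly that gene. Over the 22 genes r ran from -0.44 to 0.79, and 9 were over 0.5. The mannose receptor gene Mrc1, shared with Kupffer cells, was at 6.32 ± 0.92 FPKM in Con and 6.17 ± 0.84 FPKM in Exe mice and had the highest r of this list (0.79). Gata4 was at 4.54 ± 0.73 and 5.02 ± 0.26 FPKM (SD, n = 6), and the factor genes Maf and Meis2 at 5.92 ± 0.83 and 5.62 ± 0.66 FPKM and at 1.52 ± 0.31 and 1.31 ± 0.19 FPKM. None of these 4 genes reached an unadjusted p of 0.05 in limma.

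The VEGF pathway, in which Kdr is the receptor of VEGF-A, was covered by 19 genes, of which 12 were tested, 7 above and 5 below 0, with 0 at an unadjusted p of 0.05. Kdr itself is counted among the 7. Flt1 is also on the pan-endothelial list and Flt4 on the lymphatic and other sinusoidal lists, so the counts of these lists overlap. Vegfa, the gene of the ligand, ran from 47.2 to 67.2 FPKM in Con and from 46.3 to 69.2 FPKM in Exe mice, and its log2 fold change was 0.07. The decoy receptor gene Flt1 was at 1.42 ± 0.28 and 1.71 ± 0.29 FPKM and the co-receptor gene Nrp1 at 20.2 ± 2.14 and 23.0 ± 2.90 FPKM (SD, n = 6). The 5 genes below 0 included the receptor gene Flt4 (log2 fold change -0.16) and Akt1 (-0.07). Placental growth factor (Pgf) was at 0.055 FPKM on average in each group and was not tested.

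Genes that mark the position of an endothelial cell along the sinusoid were described on both sides. Of 10 central genes, 6 were tested, 5 above and 1 below 0, and of 10 portal genes, 6 were tested, 4 above and 2 below 0, with 0 at an unadjusted p of 0.05 on either side. The central Wnt ligand gene Wnt2 was at 1.59 ± 0.69 FPKM in Con and 1.81 ± 0.74 FPKM in Exe mice, and the Wnt enhancer gene Rspo3 at 2.27 ± 0.57 and 2.56 ± 0.26 FPKM. The portal gene Ltbp4, of a matrix protein that binds latent TGF-beta, was at 6.13 ± 1.06 and 5.86 ± 1.49 FPKM and was among the 2 portal genes below 0. The other portal gene below 0 was Cd9 (log2 fold change -0.13). The 4 portal genes above 0 were Ntn4, Adam23, Msr1 and Efnb1 (log2 fold change 0.23, 0.17, 0.09 and 0.03).

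For other kinds of endothelium, of 20 genes of continuous and large-vessel endothelium, 7 were tested, 4 above and 3 below 0, with a median r of -0.23. The only one at an unadjusted p of 0.05 was Clu (log2 fold change -0.19, adjusted p = 0.799 from limma), which made up 96.2% of the summed level of this list and is also made by hepatocytes. The endothelial gene Cd34 lay between 0.24 and 0.88 FPKM over the 12 mice and was not tested, and Plvap, of the diaphragm of fenestrae, lay between 12.8 and 23.5 FPKM in Con and between 11.4 and 22.3 FPKM in Exe mice. Of 7 lymphatic genes, 4 were tested and all 4 had a log2 fold change below 0, and Lyve1 was also below 0. None of them reached an unadjusted p of 0.05, and the most abundant, Prox1 (11.8 FPKM), is also expressed by hepatocytes.

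Other cell types were present in these livers, as in any whole liver. All 15 Kupffer cell genes were tested, 1 above and 14 below 0, with a median r of -0.37, and all 15 stellate cell genes likewise, 1 above and 14 below 0, with a median r of -0.46. In neither list did a gene reach an unadjusted p of 0.05. The Kupffer list summed to 456.7 to 762.5 FPKM in Con and 365.4 to 676.7 FPKM in Exe mice, and the stellate list to 130.7 to 252.9 and 129.2 to 229.3 FPKM. Of the 14 hepatocyte genes, 10 were above and 4 below 0. An unadjusted p of 0.05 in limma was passed by 3 of them, as by 6.21% of all genes tested. Alb and Cps1 were higher and Tat was lower in Exe mice. The r of the 14 genes ran from -0.43 to 0.81, with a median of 0.30. It was over 0.5 for 5 of them (35.7%), against 14% of 10231 genes. In Con 5, which stood highest for 6 of the 10 genes, the stellate list was at its lowest Con value (130.7 FPKM), and the cholangiocyte list too (35.1 FPKM). Spp1 made up 74.5% of the summed level of the cholangiocyte list. In Con 1, which stood lowest for 5 of the 10, the pan-endothelial list was at its lowest (83.3 FPKM) and the neutrophil list at its highest Con value (36.0 FPKM). The part of these other cells in the spread of the 10 genes was not tested.

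The lists of blood and contaminating cells were also summed in each mouse. The red blood cell list lay at 235.1 to 903.0 FPKM in Con and 400.3 to 1290 FPKM in Exe mice, and its 5 tested genes had a median r of 0.59 with Clec4g, 0.48 with Kdr and 0.30 with Ehd3, from 0.07 (Stab1) to 0.28 (Gpr182) with 6 other genes of the 10, and -0.24 with Lyve1. Of 5 red blood cell genes, 4 were above 0 and 1 (Hbb-bs) passed an unadjusted p of 0.05. Of 11 lymphocyte genes listed, 10 were in the files and 2 were tested, both above 0, of which Jchain passed an unadjusted p of 0.05 (log2 fold change 0.58, adjusted p = 0.519 from limma). The neutrophil list lay at 13.5 to 36.0 FPKM in Con and 10.3 to 55.0 FPKM in Exe mice, the cholangiocyte list at 35.1 to 83.7 and 32.2 to 85.1 FPKM, and the pancreatic acinar list at 8.60 to 17.0 and 13.1 to 34.1 FPKM. Cela1 made up 76.5% of the summed level of the acinar list, at 7.65 to 16.4 FPKM in Con and 9.6 to 15.3 FPKM in Exe mice. The acinar genes Amy2a5 and Pnlip were at 0 FPKM in all 6 Con mice and at 6.6 and 2.42 FPKM in Exe 5. Exe 5 held the highest acinar and red blood cell sums. Without Exe 5 the log2 fold changes of the 10 genes kept their side of 0, with a median of 0.12, and the part of these cells was not tested.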

How the data were processed

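Liver RNA of 12 mice (6 Con, 6 Exe) was sequenced by the authors on a DNBseq platform with paired reads. Their methods state that outliers were excluded by principal component analysis, without saying which samples were left out. According to the methods, reads of low quality were discarded and HISAT was used for alignment to GRCm39. The deposited values are FPKM, which the authors rounded to 2 decimals. The submitters' processing notes also name Bowtie2 and mm10, without a role. The tool and the annotation behind the FPKM are not given in the sources used here. The authors compared the groups with DESeq and called genes in both directions at like thresholds. As FPKM are not counts, limma was used here on log2(FPKM + 1). The number of genes called here is therefore not a repeat of the authors' test.

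The fit used limma 3.58.1 (lmFit, and eBayes with a trend) under R 4.3.3. Permutation tests used scipy 1.17.1 under Python 3.11.15. The 10241 genes that had 1 FPKM or more in 6 or more mice were tested, with thresholds of 0.05 for the adjusted p and 1 for the absolute log2 fold change. Each of the 10 genes was also tested by exact permutation over the 924 divisions of the mice (two-sided), whose smallest p is 0.00216. The correlations of pairs used 100000 resamples, or all 720 orders within a group. The fit, the depth estimate and the pair test were checked on simulated data.

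The 10 genes and the other lists were chosen with earlier results of these data known. Named genes were all 10 members, the 5 genes most like their mean, the 3 closest pairs and the lowest pair, and from each list the 2 most abundant genes and up to 2 with an unadjusted p under 0.05. Of these list genes, those on which a result turns are printed. Gata4, Maf, Meis2, Mrc1, Flt1, Nrp1, Pgf, Wnt2, Ntn4, Adam23, Cd34, Plvap, Krt19, Krt7, Epcam, Gpihbp1, Egfl7 and the pair of Stab1 and Stab2 were added for their known roles or after their values were seen. Msr1, Efnb1, Tat, Amy2a5 and Pnlip were likewise added after their values were seen.

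Alternatives were quantile normalization, FPKM rescaled to the same sum in each mouse, robust moderation, no filter or 1 FPKM required in all 12 mice, 0.1 as the pseudocount, a block on the replicate number, and each mouse left out. For pairs, Spearman's rho, deviations from the group means and, added after the data were seen, rescaled FPKM were used. Same-numbered Con and Exe mice are different animals.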

Additional observations from a re-analysis of the deposited data

Results flagged for a closer look

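In groups of 6 mice, a mouse was noted where its gap to the nearest other mouse, divided by the range of the group, was above Dixon's critical value at 95%. None of the 20 sets of the 10 sinusoidal genes (each gene in each group) stood out in this way. Of 52 sets in all, which also hold the sum of the 10 genes and 15 lists of other genes, 3 did, and chance alone marks about 1 in 20. As the authors excluded outliers by principal component analysis, this share may not hold for the mice that remained. In Exe 5 the cholangiocyte genes together reached 85.1 FPKM, where the next Exe mouse had 51.4. Most of this sum was Spp1, at 71.3 FPKM in Exe 5. Krt19, Krt7 and Epcam of the same list were at 1.61, 0.81 and 0.91 FPKM in Exe 5. They were highest in Con 6, at 18.1, 3.05 and 3.29 FPKM. Con 1 had 36.0 FPKM over the neutrophil genes, where the next Con mouse had 21.6. Pancreatic acinar genes together came to 34.1 FPKM in Exe 5, where the next Exe mouse had 16.8. The most abundant of them, Cela1, was at 9.78 FPKM in Exe 5, within the range of the other Exe mice. Amy2a5 and Pnlip were at 6.6 and 2.42 FPKM in Exe 5 and at 0 FPKM in every Con mouse. Of the 10 sinusoidal genes, Con 1 was the lowest Con mouse for 5, and Exe 5 was the lowest Exe mouse for 3 and the highest for 0.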

How the results depend on the processing

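The 19 alternative fits left 0 genes past both thresholds. Of 189 log2 fold changes of the 10 genes under them, 0 passed both thresholds, 4 passed an unadjusted p of 0.05 and 13 changed sign, all of these in Stab1, Stab2 or Fcgr2b. With rescaled FPKM, Stab1 was at 0.015 and Stab2 at 0.027. With each mouse left out, Stab1 lay between -0.057 and 0.018, Stab2 between -0.060 and 0.042 and Fcgr2b between -0.0071 and 0.16. The range was 0.12 to 0.29 for Clec4g, 0.12 to 0.31 for Kdr, 0.01 to 0.19 for Oit3, 0.03 to 0.17 for Dnase1l3, 0.15 to 0.28 for Gpr182 and 0.13 to 0.27 for Ehd3. Of the genes at an unadjusted p of 0.05, 68.7% were higher in Exe mice, 56.4% after quantile normalization and 87.4% with rescaled FPKM. Their number, 636, lay between 418 (without Exe 2) and 910 (without Exe 5), and that of the 10 sinusoidal genes between 0 and 3. Pairs of genes past an adjusted p of 0.05 (permutation test) numbered between 16 and 32 with a mouse left out, and 31 with rescaled FPKM. With the replicate number as a block, 567 genes reached an unadjusted p of 0.05, and the block changed no call of the 10 genes. Same-numbered mice did not deviate together (correlations over genes from -0.48 to 0.16, of which 1 of 6 was over 0.1, and 2 of 12 mice correlated best with their own number), so the number was not taken as a pairing. With FPKM of at least 1 required in all 12 mice, 9 of the 10 genes passed, without Lyve1. The precision is limited by 6 mice a group.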

Other observations

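Likeness was also looked at gene by gene, after the values had been seen, as a description over the 12 mice. The gene most like Stab2 among those on the lists was the mannose receptor gene Mrc1, at r = 0.92, which stood second of all genes tested outside the 10. Gimap4, of the immunity-associated GTPases, led for Gpr182 (0.95). For Kdr and Dnase1l3 the leading 5 genes included genes of mitochondrial respiration and transport that hepatocytes express strongly: Ndufa4 (913.5 FPKM, r = 0.90) for Kdr, and Ndufb9 (332.6 FPKM, 0.92) and Mpc1 (187.5 FPKM, 0.91) for Dnase1l3. For Ehd3, 4 of the 5 had means between 438.6 and 653.9 FPKM: Serpinf1 (0.95), Ndufa3 (0.92), Hsd11b1 (0.92) and Cyp2d10 (0.91). Their part in the common variation of the sinusoidal genes was not tested.

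The 5 genes closest to Lyve1 were Akirin1 (0.96), Ttyh3 (0.86), Ppp1cc (0.85), Xpr1 (0.85) and Zfp35 (0.84), none of which is on a list used here. Its median r was 0.31 with the 15 Kupffer cell genes, where the other 9 genes ran from -0.61 (Ehd3) to -0.01 (Stab1), with Clec4g at -0.05 and Stab2 at -0.13. With the 15 stellate cell genes it was 0.13, where the others ran from -0.58 (Ehd3) to -0.13 (Stab1).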
